A study of Mus musculus with 3 samples.

Results

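Between 40 and 55 Mb of chromosome 11, the exome libraries of the mouse bladder cancer line MB49 listed 774 distinct insertions or deletions (indels), out of 23347 in the whole series. Every indel listed in that 15 Mb in any of the 3 libraries was taken, whatever its place relative to genes, and entries were matched on position, reference allele and alternative allele. The stretch was selected on its deposited genotypes, which are mostly homozygous, so the genotype shares are a description and were not tested. The other 1290 indels of chromosome 11 lie outside it.

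MB49 is an established mouse line, and genomic DNA was captured for exons and sequenced from the parental line, a line with the genotype label Y positive and a line with the genotype label Y negative. All 3 were grown in the same medium with serum, and each group is 1 library, so there is no replicate and no difference below is a difference between conditions. How the Y positive and Y negative lines were derived, and whether each is 1 clone, is not given in the sources used here. The sample descriptions are MBN for Y positive and MBP for Y negative, and no label states what those letters stand for. If N and P stood for negative and positive, these descriptions would oppose the genotype labels, and the values given for Y positive and Y negative would be exchanged. The genotype labels are followed here. Positions are those of the deposited files. They are not mm10 positions, because the lists run to 197068017 on chromosome 1 while the last gene in the GRCm38 (mm10) table ends at 195291439. The only other build named in the submitters' processing notes is mm9.

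An indel is usually called homozygous when nearly all reads over the site carry the new allele. It is usually called heterozygous when reads of both the reference and the new allele are present. The genotypes used here are the deposited calls, and some given below depart from this. Neighbouring sites on a chromosome are inherited together, so genotypes of 1 class often follow each other along a chromosome. In coding exons, an indel whose length is a multiple of the codon length adds or removes amino acids, and any other length shifts the reading frame. A few such changes can still restore the frame when they lie close together on the same copy.

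The indels that alter coding sequence and those that show best how fully the new allele replaced the reference are printed first, in lower case on the strand the files give, 5′ to 3′. The first set are coding members for which every read carried the new allele in all 3 libraries.
Insertion after 50014269, ENSMUST00000143379, frameshift: gtgggtc
Deletion chr11:50617418-50617423, ENSMUST00000040523, in frame: ccgtct
Insertion after 50764456, ENSMUST00000051159, in frame: ggt
Insertion after 50841119, ENSMUST00000072152, frameshift: ct
Deletion chr11:50841123-50841124, ENSMUST00000072152, frameshift: gg
The next set are long intronic members, shown because their reads were almost all of the new allele.
Insertion after 46154825, ENSMUST00000020664: tgccaggaagctctctctga
Insertion after 46167321, ENSMUST00000020664: caatcaatcaat
Deletion chr11:50593441-50593452, ENSMUST00000040523: ctccttccgtga
Deletion chr11:48989225-48989234, ENSMUST00000046522: ttatctcaac
Deletion chr11:51390249-51390269, ENSMUST00000102765: tcaggtcacagggaagtgggc
The last set is the coding deletion chr11:46220220-46220282 of ENSMUST00000063166, whose 63 bases are 3 units of 21 bases. The capital marks the 1 base at which the first unit differs from the others.
Unit 1: cagcagcagggacggcagggC
Unit 2: cagcagcagggacggcagggG
Unit 3: cagcagcagggacggcagggG

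The lists held 451 parental, 394 Y positive and 452 Y negative entries in the stretch, and values given in threes below follow that order of libraries. Depth, the reads over an entry, was low for most: the medians were 7, 10 and 5.5 reads. Of the 774 members, 163 reached 20 reads in at least 1 library, 611 stayed below 20 wherever they were listed, and 466 stayed below 5. A library that does not list an indel gives no reads for it, and its genotype there is unknown. Unless stated otherwise, values below are for entries with 20 or more reads.

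Homozygous entries made up most of the stretch in all 3 libraries. The parental library had 109 homozygous, 20 heterozygous and 10 entries at sites with 2 alternative alleles, of 139. Its homozygous share was 78.4%, with an exact (Clopper-Pearson) 95% interval of 70.6 to 84.9. The Y positive library had 104, 20 and 6 of 130, a homozygous share of 80% (72.1 to 86.5). The Y negative library had 103, 18 and 8 of 129, a share of 79.8% (71.9 to 86.4). Over the rest of chromosome 11 the share was 18.0% of 222 parental entries, 21.03% of 214 Y positive entries and 19.1% of 215 Y negative entries. Most homozygous entries there lay in 1 dense cluster at 3 to 4 Mb, and without it the shares were 6.67%, 11.6% and 7.69%. The 3 libraries thus had like shares inside the stretch, far above the rest of the chromosome. These intervals cover counting error only, since reads carry no molecular identifiers and neighbouring indels can share reads.

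The depth of an entry moved with its genotype. Below 5 reads, homozygous calls were 97.0%, 99.2% and 99.1% of the entries in the stretch, but also 92.7%, 91.3% and 91.0% in the rest of the chromosome. At that depth homozygous calls dominated both regions. Between 5 and 19 reads, homozygous calls were 78.8%, 84.7% and 85.2% of the entries in the stretch. The rest of chromosome 11 held 39.5%, 32.1% and 24.1%. The separation was therefore present at both of the higher depth classes.

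**Figure D1:**
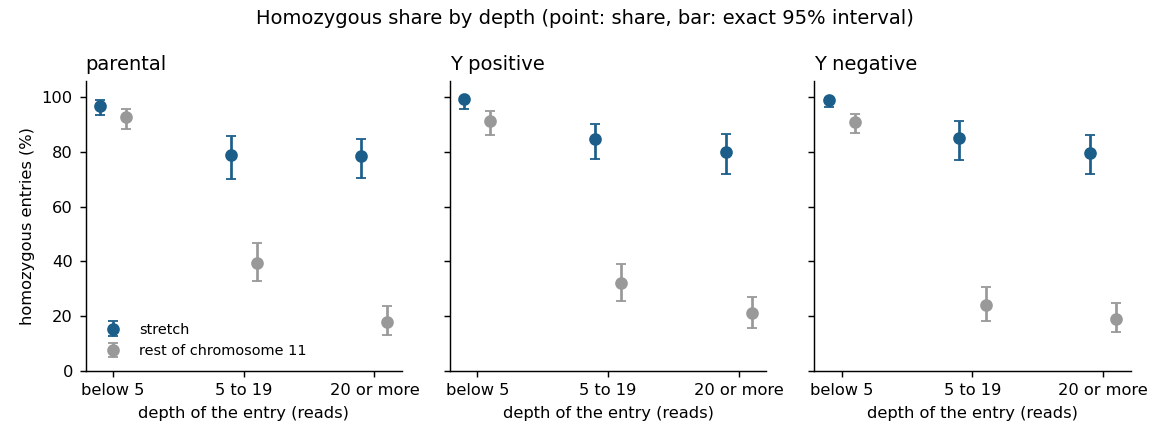
Share of entries with a homozygous genotype (y axis, percent) by depth of the entry (x axis, reads) in the 40 to 55 Mb stretch and the rest of chromosome 11, 1 panel per library, with exact 95% intervals. The 2 regions lie close together below 5 reads and apart at 5 to 19 and at 20 or more reads in all 3 libraries.

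Listed indels were also denser in the stretch than in the rest of chromosome 11, though not than in the stretches of chromosomes 2 and 3 given at the end. There were 9.27 entries per Mb in the parental list, 8.67 in the Y positive list and 8.60 in the Y negative list, against 2.14, 2.06 and 2.07 in the rest of the chromosome. At any depth the densities were 30.1, 26.3 and 30.1 per Mb inside and 6.31, 5.61 and 6.65 outside. The captured bases per Mb were not used, so a density is of listed indels and not of indels per sequenced base.

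The dense homozygous block did not have the borders of the 15 Mb stretch. In 1 Mb windows at any depth it ran from 36 to 52 Mb, limits read from the windows after their values were seen. Its part from 36 to 40 Mb rests on thin entries: 74 of 77, 41 of 46 and 90 of 93 had fewer than 5 reads. At that depth homozygous calls also dominated the rest of the chromosome. The 16 windows of that block had a median of 21.5 homozygous entries in parental (range 8 to 76), 15 in Y positive (2 to 64) and 24 in Y negative (7 to 78). The highest window in each library was 40 to 41 Mb. Elsewhere on the chromosome, beyond 4 Mb, the 102 windows had a median of 1 homozygous entry in each library and at most 6, 11 and 8. A second dense cluster lay at 3 to 4 Mb with 165 parental, 160 Y positive and 170 Y negative entries. That cluster was mixed: 30 of 72, 28 of 68 and 30 of 72 entries there were homozygous at 20 or more reads.

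**Figure D2:**
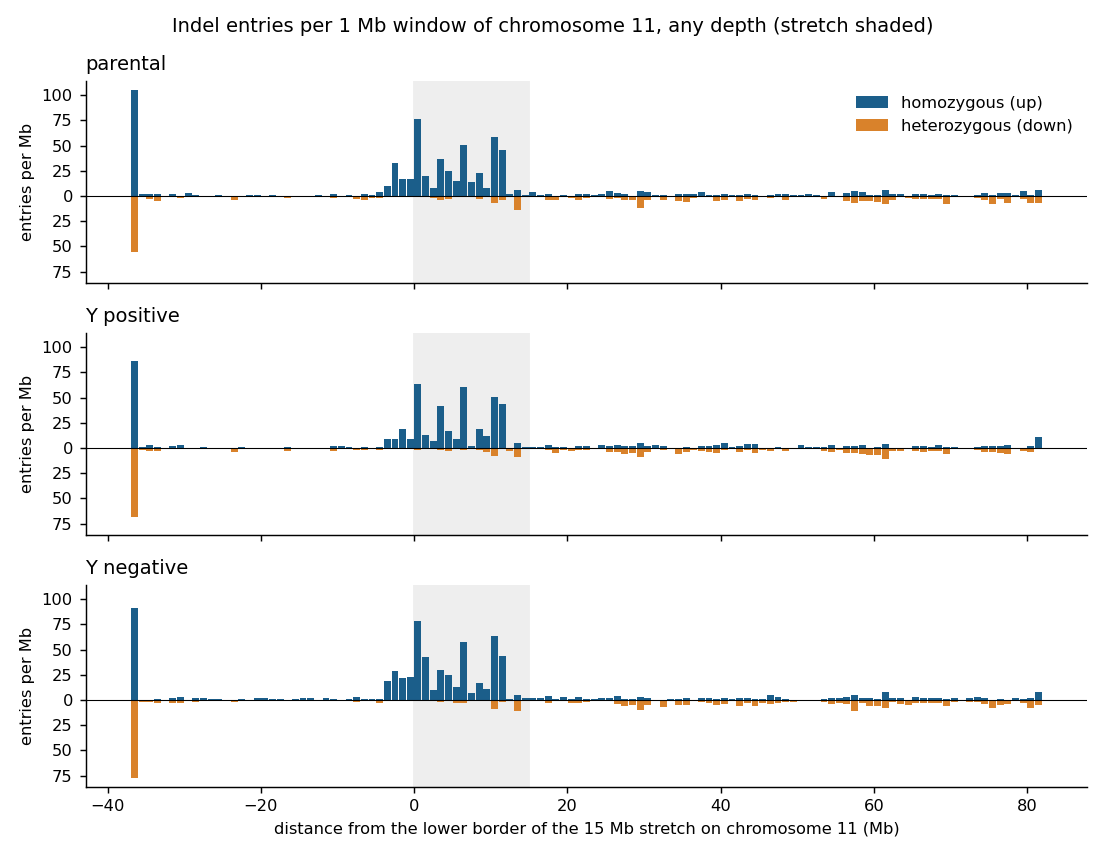
Indel entries per 1 Mb window along chromosome 11 at any depth, homozygous upwards and heterozygous downwards, 1 panel per library, with x as distance in Mb from the lower border of the shaded 15 Mb stretch. Homozygous windows begin about 4 Mb below the stretch and end 3 Mb before its upper border, and the mixed cluster at the far left is the one at 3 to 4 Mb.

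Below the stretch, all entries between 36 and 40 Mb were homozygous (77, 46 and 93), although only 3 in each library had 20 or more reads. One of these, an insertion of ca at 37504635, had the new allele in 128 of 128, 142 of 142 and 139 of 139 reads. It was the first site of the block homozygous in all 3 libraries at that depth. A neighbour at 38033754, downstream of ENSMUST00000120104, had 53 of 53, 71 of 71 and 49 of 49 reads. The nearest heterozygous site below, a t deletion at 35137225 in a noncoding intron, had 36 of 55, 25 of 42 and 33 of 65 reads. The lower change from heterozygous to homozygous thus fell in the 2.37 Mb between 35137225 and 37504635, below the stretch.

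Just inside the lower border of the stretch, the first member, at 40051763, was listed in Y negative only, with 2 of 2 reads. The homozygous member with 20 or more reads nearest this border was a 3-base deletion at 40494290, and it had 62 of 62, 70 of 78 and 63 of 64 reads. An a deletion next to it, at 40498148, had 56 of 56, 71 of 71 and 53 of 53 reads, and both lie in introns of the noncoding ENSMUST00000137797. A tac insertion at 40523394 was homozygous with 220 of 220, 240 of 240 and 230 of 230 reads. Close by, a c deletion at 40521008 was called homozygous in parental (23 of 25 reads) and heterozygous in Y positive (22 of 29) and Y negative (17 of 24). Another c deletion, at 40500753, had 7 of 7, 16 of 20 and 15 of 16 reads, and was called heterozygous in Y positive alone. These 2 sites are the heterozygous members nearest the lower border, and most of their reads carry the new allele.

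The upper change lay inside the stretch. The last site homozygous in all 3 libraries before 52 Mb was at 51441366, and the next heterozygous site, a t insertion at 52200898 in an exon of the noncoding ENSMUST00000153339, followed after 0.760 Mb. That insertion had 31 of 76, 29 of 62 and 26 of 56 reads. A t deletion at 53210153 was heterozygous as well, with 32 of 69, 30 of 69 and 28 of 64. The distance from the first site of the block homozygous in all 3 libraries, at 37504635, to the last before 52 Mb was 13.9 Mb. Above 52 Mb, 2 further sites were homozygous in all 3.

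Divided at 52 Mb, the lower 12 Mb of the stretch were 84.3% (107 of 127), 82.8% (101 of 122) and 82.0% (100 of 122) homozygous. The upper 3 Mb held 2 homozygous of 12 entries in parental, 3 of 8 in Y positive and 3 of 7 in Y negative. The name homozygous stretch therefore describes 40 to 52 Mb, and the sites above 52 Mb were mixed and few. An a insertion at 53535175 was homozygous with 36 of 41, 53 of 59 and 41 of 45 reads. A ggtg insertion at 53953724 was homozygous with 48 of 48, 52 of 54 and 42 of 42. Near it, a tggca insertion at 53954032 was heterozygous in parental, with 30 of 33 reads, and homozygous in Y positive (23 of 23) and Y negative (21 of 21). An aata deletion at 53953804 was called heterozygous with 19 of 20, 22 of 24 and 19 of 21 reads. At both of these intergenic sites a heterozygous call rested on 1 to 3 reads without the new allele. An a insertion at 53506060, in a noncoding intron, was heterozygous with 27 of 31, 19 of 25 and 20 of 26 reads.

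The last member before the upper border, at 54818269, was heterozygous in parental with 8 of 30 reads and was not listed in the other libraries. Just beyond it, 55109412 was homozygous in parental at 5 of 6 reads. Between 55 and 65 Mb, 0 of 17, 1 of 9 and 0 of 8 entries were homozygous at 20 or more reads. The first heterozygous sites there were at 57263386, in Y positive with 31 of 43 reads, and at 57694788, in parental with 13 of 23. The nearest homozygous ones were at 59186903, in Y positive with 63 of 71 reads, and at 66903664, in parental with 85 of 92.

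**Figure D3:**
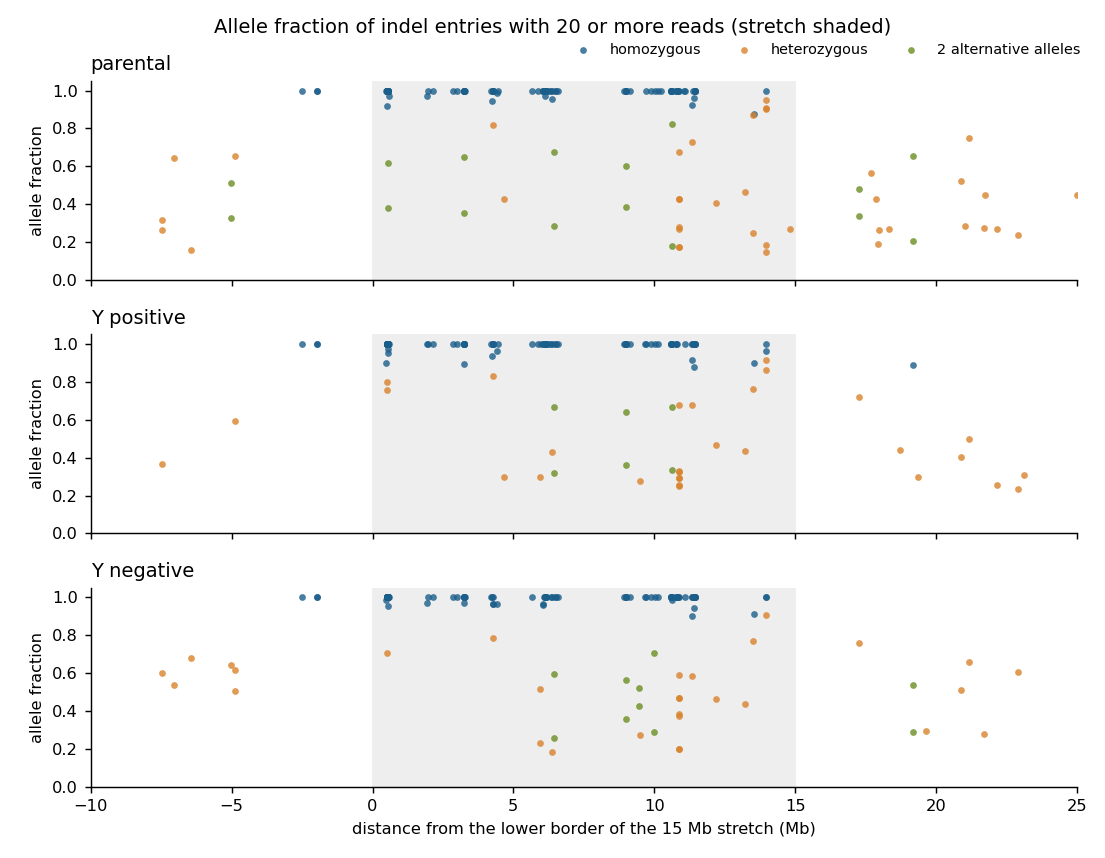
Allele fraction, the share of reads with the new allele (y axis), of entries with 20 or more reads by distance in Mb from the lower border of the shaded stretch, 1 panel per library, coloured by deposited genotype. Homozygous points line up near 1.0 from about 2.5 Mb below the border to about 11.5 Mb above it, and points in the last 3 Mb of the stretch are mostly heterozygous.

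Followed site by site, homozygous entries came in long runs. The longest unbroken run of homozygous entries touching the stretch held 25 entries in parental, from 37504635 to 40549643 (3.05 Mb). In both Y positive and Y negative it held 35 entries, from 40521018 to 44222198 (3.70 Mb). The longest homozygous run elsewhere on chromosome 11 held 5, 6 and 8 entries, all in the 3 to 4 Mb cluster. The shorter parental run ended at a site with 2 alternative alleles, and leaving such sites out gave a parental run of 47 entries. In all, the stretch was crossed by 12, 14 and 12 homozygous runs. Its longest run of other genotypes in Y positive and Y negative was 7 entries over 631 bases, from 50861907 to 50862537, inside 1 transcript described further on. In parental, the longest began at 53953789 and ran 24 entries to 66897049, well beyond the stretch.

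At homozygous members, reference reads were rare. They were 25 of 6406 reads in parental (0.390%), 42 of 6150 in Y positive (0.683%) and 36 of 5986 in Y negative (0.601%). At homozygous entries of all autosomes they were 1.72%, 1.61% and 1.76%. In the rest of chromosome 11 they were 5.12%, 4.57% and 5.04%, but there 30 of 40, 28 of 45 and 30 of 41 homozygous entries came from the cluster at 3 to 4 Mb. The rest of chromosome 11 also held 942 of the 1393, 743 of the 1262 and 907 of the 1371 autosomal reference reads. The autosomal shares are therefore raised by it and are no separate background. Of the homozygous members, 99 of 109, 94 of 104 and 90 of 103 had 0 reference reads. The lowest fraction among them was 0.878 in parental and Y positive and 0.901 in Y negative. The call itself rests on these reads, so the low share of reference reads is a description of it.

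The printed long indels were picked for their high fractions, so their reads are given as a description. The 20-base insertion at 46154825 had 45 of 45, 37 of 37 and 38 of 38 reads, and was the longest insertion with 20 reads in every library. The longest such deletion removed 34 bases at chr11:46056037-46056070, in an intron of ENSMUST00000093165, with 42 of 42, 31 of 31 and 28 of 29 reads. The insertion of caat repeats at 46167321 had 53 of 53, 41 of 41 and 55 of 55 reads. The 12-base deletion at 50593441 had 28 of 28, 35 of 35 and 36 of 36, and the 10-base deletion at 48989225 had 225 of 225, 229 of 229 and 181 of 181. The 21-base deletion at 51390249 kept some reference reads, with 49 of 51, 36 of 41 and 51 of 54.

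Among homozygous entries of the stretch, indels of 5 or more bases were 29.4%, 26.9% and 26.2%. In the rest of chromosome 11 they were 15%, 6.67% and 17.1% of homozygous entries, and on the other autosomes 19.9%, 18.4% and 18.5%. Insertions were 48.6%, 48.1% and 50.5% of the homozygous entries of the stretch, against 42.5%, 46.7% and 48.8% in the rest of chromosome 11 and 41.1%, 38.8% and 39.3% on the other autosomes. Single a or t bases were 22.02%, 21.2% and 23.3% of homozygous but 50%, 55% and 55.6% of heterozygous entries of the stretch. This split was not particular to it. In the rest of chromosome 11 they were 25%, 26.7% and 19.5% of homozygous and 44.5%, 46.0% and 43.1% of heterozygous entries. On the other autosomes they were 31.2%, 34.0% and 34.5% of homozygous and 54.4%, 55.1% and 56.5% of heterozygous entries. These shares compare entries of the same 3 libraries and were not tested.

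Not every site between 40 and 52 Mb was homozygous. The exceptions were 20 entries in the parental list, 21 in the Y positive list and 22 in the Y negative list. Of these, 10, 6 and 8 were at sites with 2 alternative alleles, where the files list both new alleles and at most 6 reads carried the reference. The remaining 10, 15 and 14 were heterozygous, and 7 in each library lay in 1 transcript, ENSMUST00000073543.

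The sites with 2 new alleles were mostly base runs of differing length. At 48986785, in an intron of ENSMUST00000046522, insertions of ttt and tttt were listed together. In parental, ttt had 25 and tttt 39 of 65 reads. In Y positive ttt had 55 and tttt 31 of 86 reads, and in Y negative they had 44 and 28 of 78. The more frequent length was tttt in parental and ttt in the other libraries.

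Of the single heterozygous sites below 52 Mb, a t insertion at 44274138 had 58 of 71, 53 of 64 and 48 of 61 reads. An a insertion at 51339552 had 38 of 52, 25 of 37 and 27 of 46. Other heterozygous entries appeared in only some lists. A t deletion at 44682763 had 15 of 35 parental and 8 of 27 Y positive reads and was not listed in Y negative. A g deletion at 45938412 had 8 of 27 Y positive and 16 of 31 Y negative reads and was not listed in parental, and a t deletion at 46375908 had 12 of 28 and 5 of 27 in the same 2 libraries. Y negative alone listed a t deletion at 45957273 (25 of 109 reads) and an ag deletion at 49478184 (12 of 44). Y positive alone listed an a insertion at 49500322 (10 of 36). Single a or t bases made up 6 of the parental, 8 of the Y positive and 7 of the Y negative heterozygous entries between 40 and 52 Mb.

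The lists overlapped closely where depth allowed. Of all 774 members, 232 (29.97%) were in all 3 lists, 59 in 2 and 483 in 1. Of the 163 members with 20 reads in some library, 141 were in all 3 lists (86.5%, exact 95% interval 80.3 to 91.3). In the rest of chromosome 11, 165 of 340 such indels (48.5%) were. Sharing went with genotype. Listed in all 3 were 109 of 109 homozygous parental entries, 103 of 104 Y positive and 100 of 103 Y negative, against 15 of 20, 16 of 20 and 14 of 18 heterozygous ones. Homozygous entries were shared about as fully elsewhere: 39 of 40, 42 of 45 and 40 of 41 in the rest of chromosome 11, and 95.7%, 96.3% and 95.95% on all autosomes. Heterozygous entries in all 3 lists were 61.0%, 63.2% and 63.1% in the rest of chromosome 11 and 57.8%, 56.6% and 55.9% on all autosomes. In the stretch, 7 of the shared heterozygous entries of each library lay in ENSMUST00000073543. The parental list held 180 private members, that of Y positive 116 and that of Y negative 187. Of those, 90%, 81.9% and 93.0% had fewer than 5 reads, and 6, 1 and 3 had 20 or more.

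The genotype of a member seldom differed between libraries. Of 105 members with 20 reads in all 3, 86 were homozygous in each, 13 heterozygous in each and 4 had 2 new alleles in each. The other 2 changed class, and they were the sites 40521008 and 53954032 described above. In the rest of chromosome 11, 20 of 126 such sites changed class, but there 26 were homozygous in each and 78 heterozygous in each. The stretch was selected on homozygous genotypes, so its agreement in class draws on the values of that selection and is a description.

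Allele fractions were compared between libraries by Fisher exact tests of reads, two-sided, with Benjamini-Hochberg adjustment over the whole genome for each pair. No member passed an adjusted p of 0.05. The stretch was selected on homozygous genotypes, so most members had fractions near 1 in both libraries and little room to differ. The median absolute difference in fraction was 0 for each pair. The absence of passing members therefore does not show that the libraries agree. For Y positive against parental, 0 of 110 members passed and 5 had an unadjusted p under 0.05, and across the genome 0.874% of 2745 sites passed. For Y negative against parental, 0 of 107 passed and 3 had an unadjusted p under 0.05, with 0.302% of 2651 sites passing genome-wide. For Y negative against Y positive, 0 of 107 passed and 8 were under 0.05 unadjusted, with 0.794% of 2645 sites passing. The smallest adjusted Fisher exact p was 0.261, 0.612 and 0.140 for these pairs. Each test compares reads of 2 libraries at sites both of them list, and an indel missing from either list was not compared.

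Depth at members differed little between libraries. Over the 226 members listed in all 3 with 1 new allele, depth ratios were centred on the autosomal median after adding 0.5 reads. The median log2 ratio of Y positive over parental was 0.00 (95% order-statistic interval -0.15 to 0.00). It was -0.07 for Y negative over parental (-0.15 to 0.03) and -0.09 for Y negative over Y positive (-0.19 to 0.02). The 236 such sites of the rest of chromosome 11 had medians of -0.04, 0.06 and 0.05. The largest depth ranges were at thinly covered members. At 51332849 there were 6, 2 and 1 reads, at 40549711 there were 13, 3 and 6, and at 40527866 there were 9, 6 and 2. The other two were 50047276 with 5, 8 and 2 reads and 51416524 with 4, 11 and 3.

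By the deposited annotation, 273 members (35.3%) were intronic, 208 (26.9%) intergenic and 177 (22.9%) in introns of noncoding transcripts. A further 42 were in noncoding exons, 21 in coding exons, 19 downstream and 17 upstream of a gene, 15 in 3′ UTRs and 2 in 5′ UTRs. Splice sites held 0. The files name transcripts by Ensembl identifier and give no gene symbol, and none of 338 identifiers could be matched to a symbol here, so the genes are given by identifier and their functions are not described.

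Members clustered in a few transcripts. Gene bodies of 159 first-named transcripts held 530 members, 82 of these transcripts held 1, and 8 transcripts with 10 or more held 181. ENSMUST00000102765 held 54 intronic members over 250.604 kb, but only 10 were in all 3 lists. ENSMUST00000040523 held 35, with 11 in all 3. At any depth its entries were all homozygous (16, 18 and 24), many of them at few reads. The noncoding ENSMUST00000125011 had 24 of its 30 members in all 3 lists, within 26.4 kb. The 12 members of ENSMUST00000130945, near the lower border, were never in all 3 lists, and all had 1 to 3 reads.

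Coding exons of 13 transcripts were hit by 21 members, 15 of them frameshifts and 6 in frame. In all 3 lists were 15, in 2 lists 2 and in 1 list 4. At 20 or more reads there were 13 coding entries in parental (6 homozygous), 11 in Y positive (4 homozygous) and 13 in Y negative (6 homozygous), and the 7 heterozygous ones in each library were all in ENSMUST00000073543. The rest of chromosome 11, a far longer sequence, had 1, 3 and 2 coding entries at that depth, 0 of them homozygous. It had only 40, 45 and 41 homozygous entries of any kind. Coding entries were 6 of 109, 4 of 104 and 6 of 103 homozygous entries in the stretch. On the other autosomes they were 40 of 946, 42 of 957 and 41 of 894, a like share.

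The deepest homozygous coding members had no reference read in any library. An a insertion at 42850272, in exon 1 of ENSMUST00000069051, shifts the frame from residue 81 (E81fs), and had 155 of 155, 136 of 136 and 144 of 144 reads. The gtgggtc insertion at 50014269, in exon 7 of ENSMUST00000143379, shifts the frame from residue 368 (P368fs), with 79 of 79, 84 of 84 and 80 of 80 reads. The ccgtct deletion at 50617418, in exon 22 of ENSMUST00000040523, is in frame and had 97 of 97, 71 of 71 and 85 of 85 reads. The ggt insertion at 50764456, in exon 3 of ENSMUST00000051159, is also in frame, with 36 of 36, 27 of 27 and 23 of 23. All 3 libraries therefore shared these changes in full.

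In exon 1 of ENSMUST00000072152, a ct insertion at 50841119 and a gg deletion at 50841123 lay 4 bases apart. The insertion had 29 of 29, 19 of 19 and 32 of 32 reads, and the deletion had 22 of 22, 13 of 13 and 31 of 31. Each is annotated as a frameshift on its own, but their lengths sum to a net change of 0 bases.

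Other homozygous coding members were thinly covered. A g insertion at 51464620, in exon 1 of ENSMUST00000064493 (L45fs), had 11 of 11, 7 of 7 and 9 of 9 reads. A tcc deletion at 48629760, in frame in ENSMUST00000047145, had 4 of 4, 3 of 3 and 3 of 3. A tg deletion at 43400923, in exon 1 of ENSMUST00000056256 (C41fs), had 5 of 5 Y positive and 4 of 4 Y negative reads and was not listed in parental. In an ag repeat at 48652479, exon 2 of ENSMUST00000109215, Y positive listed a 12-base in-frame deletion with 12 of 12 reads and Y negative a 10-base frameshift with 3 of 3. Parental listed neither, so the length of that repeat differed between the lists that name it.

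The deletion of 3 repeat units at 46220220, in exon 2 of ENSMUST00000063166, was deposited as homozygous, but only 5 of 9 parental and 7 of 13 Y positive reads carried it. The other 4 and 6 reads carried the reference, and Y negative did not list it. It was the member with the lowest fraction among homozygous entries with 5 or more reads. In all, 9 members had such an entry with a fraction below 0.9. Above 52 Mb, the coding members were heterozygous and each in 1 list. They were a cag deletion at 53146020, in ENSMUST00000018383, in Y negative with 2 of 3 reads, and an a deletion at 53269833, in ENSMUST00000084653 (S124fs), in parental with 6 of 18.

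Exon 1 of ENSMUST00000073543 broke the homozygous block with 7 heterozygous coding indels within 631 bases. A t deletion at 50861907 had 114 of 268, 70 of 215 and 130 of 279 reads, and a g insertion at 50861909 had 116 of 270, 71 of 216 and 131 of 281. The same reads can cover sites 2 bases apart, so the near-equal fractions of such neighbours are not independent. A cc deletion at 50862212 had 41 of 233, 54 of 186 and 49 of 249, and a tc insertion at 50862216 had 39 of 227, 54 of 184 and 50 of 250. The highest fractions were those of a t deletion at 50862471, with 210 of 312, 176 of 260 and 185 of 313. An a insertion at 50862531 had 74 of 265, 53 of 212 and 100 of 260, and a c deletion at 50862537 had 69 of 256, 53 of 209 and 96 of 258.

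These indels formed 3 pairs, 2, 4 and 6 bases apart, and the lengths in each pair sum to a net change of 0 bases. Over all 7 the net change was -1, that of the t deletion at 50862471. The fractions were near-equal within a pair, and none was close to 1. In Y positive the intervals of the 3 pairs overlapped. The transcript was also deep: its 7 indels had medians of 265, 212 and 260 reads, against 41.5, 38 and 41 for the other members. As deep as its shallowest indel were 0 of 132 other members in parental, 4 of 123 in Y positive and 0 of 122 in Y negative. Among autosomal coding entries, 79.5%, 69.0% and 78.1% were shallower than it. The part of depth in these genotypes was not tested.

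The largest difference between libraries in the transcript was at 50861907. Its fraction was 0.466 in Y negative and 0.326 in Y positive, with an unadjusted Fisher exact p of 0.00170 and an adjusted p of 0.140. Every member with an unadjusted p under 0.05 was either one of these 7 indels, neighbours of which share reads, or the deletion at 40494290.

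**Figure D4:**
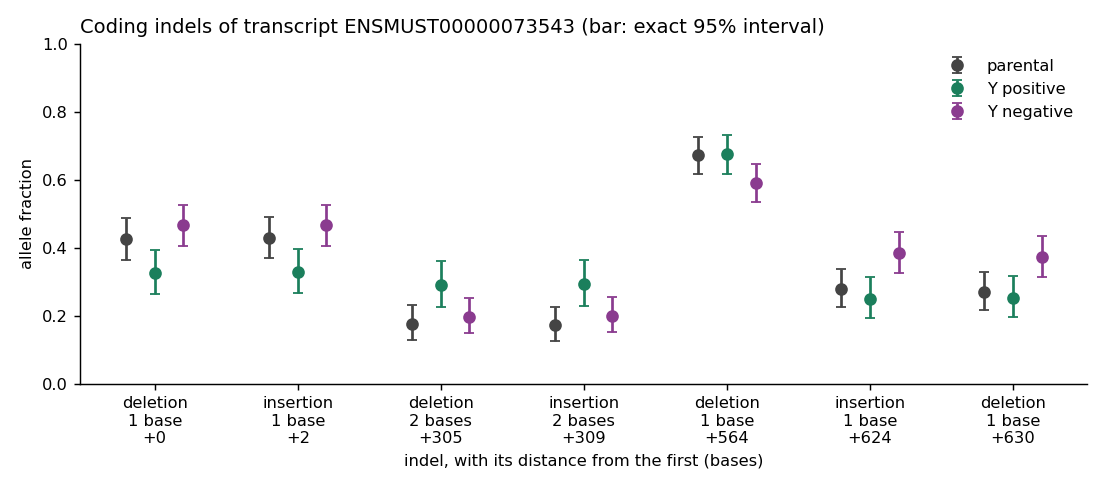
Allele fraction (y axis) with exact 95% intervals of the 7 coding indels of ENSMUST00000073543 in the 3 libraries, in order of position, with the distance in bases from the first indel on the x axis. Indels of a pair sit at the same height in each library, the single t deletion is highest at 0.591 to 0.677, and none approaches 1.0.

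Homozygous blocks of this kind were present on other chromosomes. A stretch of chromosome 3 from 85 to 95 Mb held 695 indels and was 82.7%, 78.2% and 74.9% homozygous. A stretch of chromosome 2 from 80 to 95 Mb held 655 and was 77.2%, 74.7% and 75% homozygous. The shares of the whole chromosome 11 stretch lie near both. That stretch was selected on homozygous genotypes, and those for comparison were chosen with earlier results known. Like shares therefore cannot show whether the chromosome 11 stretch stands apart from them. Its part from 40 to 52 Mb was 84.3%, 82.8% and 82.0% homozygous, above both. That upper limit was set after values were seen, and no borders were examined on chromosomes 2 and 3. Density was 16.8, 17 and 16.7 entries per Mb on chromosome 3 and 10.8, 10.8 and 10.4 on chromosome 2. Both are above the 9.27, 8.67 and 8.60 of the chromosome 11 stretch. Its part from 40 to 52 Mb had 10.6, 10.2 and 10.2 entries per Mb, close to chromosome 2. Of these entries, 91.7%, 87.6% and 88.0% on chromosome 3 were in all 3 lists, and 87.7%, 86.4% and 88.5% on chromosome 2. In the chromosome 11 stretch, 92.8%, 94.6% and 91.5% were.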

How the data were processed

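Genomic DNA of 3 MB49 lines, 1 library each, was sequenced after exome capture. The submitters' processing notes name BWA, Picard, mm9 and mm10, without versions or roles, and the variant caller is not given in the sources used here. The deposited lists hold indels only in the 34508 entries used, all with the filter value PASS. The authors' read counts per entry (depth, reference and alternative reads) were used, and the allele fraction was computed as alternative reads over depth. The deposited quality score was not used as a filter. The stretch, its neighbours for comparison and the rules were chosen with earlier results of these data known.

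Shares carry exact 95% intervals at a depth of at least 20 reads. Allele fractions were tested per site by Fisher exact tests, two-sided, with Benjamini-Hochberg adjustment over all sites of a pair (Python 3.11.15, pandas 2.3.3, scipy 1.17.1). The step was tested on simulated data, with changes planted only at sites of lower fraction. It therefore gives no measure of the test at members with fractions near 1. Runs are consecutive listed entries that are either all homozygous or all not homozygous. A run of the latter kind can mix heterozygous entries and sites with 2 alternative alleles. Named indels are the coding members, those heterozygous in any library with 20 reads in all 3, those nearest each border, the longest insertion and deletion, and the 5 with the largest depth range. Other named indels, and the limits of 36 and 52 Mb, were chosen after their values were seen. Alternatives were other depth minimums, genotype rules, matching rules, borders and centring.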

Additional observations from a re-analysis of the deposited data

How the results depend on the processing

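Of 138 alternative values, 113 moved by less than their interval or limit and 25 moved more. Without a depth minimum, the homozygous share was 86.7% (parental), 88.1% (Y positive) and 90.3% (Y negative) in the stretch and 51.1%, 45.6% and 49.3% in the rest of chromosome 11. Density then was 30.1, 26.3 and 30.1 entries per Mb, the longest homozygous run held 137, 63 and 126 entries, the share listed in all 3 libraries was 51.4%, 58.9% and 51.3%, and Y positive had 18 coding entries. At a minimum of 10 reads, Y positive had 13.7 entries per Mb and 88.8% of entries in all 3 lists. With homozygous defined as a fraction of at least 0.9, the parental share in the rest of chromosome 11 was 24.8%. Without 3 to 4 Mb, an alternative chosen after seeing the data, that share was 6.67%, 11.6% and 7.69%. Leaving out sites with 2 alternative alleles, chosen likewise, gave a parental run of 47 entries. Matching within 10 bases put 96.1% of Y negative entries in all 3 lists. Centred on the rest of chromosome 11, the log2 depth ratio was 0.042 for Y positive over parental, -0.13 for Y negative over parental and -0.13 for Y negative over Y positive. No paired analysis was possible because each group is 1 library. The 466 members below 5 reads wherever listed have genotypes too thin to separate homozygous from heterozygous, and no alternative could leave out a replicate.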
